A study of Mus musculus with 74 samples.

Results

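Asns, Psat1, Aldh18a1, Got1 and Phgdh encode enzymes that make amino acids, and Atf4, Atf5, Trib3 and Ddit3 encode factors of the stress response that controls such genes. The 9 genes were taken by symbol from the RNA-seq table of WT and Gps2 LKO livers, which holds 14583 genes, and from every ChIP-seq table by the gene whose transcription start site (TSS) was nearest to the peak. The genes were selected on measured values: the log2 RNA differences between Gps2 LKO and WT livers, in which the synthesis genes were higher, chose them, so their RNA values below are a description and carry no test. The ChIP-seq tables were not used in that choice. They assign to these genes 24 of 85764 histone peaks in the Gps2 line, 16 of 68818 H3K27ac peaks in the Ncor and Smrt lines, 35 of 80813 and 45 of 115042 NCOR peaks in the Gps2 and Ppara lines, 22 of 56278 and 13 of 27842 GPS2 peaks in the Ncor and Ppara lines, and 51 of 102519, 42 of 86168 and 20 of 40253 PPARα peaks in the Gps2, Ncor and Ppara lines. A further 19 of 49018 GPS2 peaks and 16 of 31434 RNA polymerase II peaks of the Gps2 line were assigned to them.

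All libraries came from livers of C57BL/6 mice aged 8 to 12 weeks. The histone libraries of the Gps2 line are labelled as fed, and the study describes mice on chow diet for the RNA-seq. GPS2 is a subunit of the corepressor complex that contains NCOR, SMRT and HDAC3, and PPARα is a nuclear receptor of fatty acid catabolism to which that complex can be recruited. In Gps2 LKO mice, the floxed Gps2 gene was deleted by Alb-Cre, which acts in hepatocytes, so the other cells of the liver keep GPS2, and the controls called WT were floxed mice without Cre. Ncor LKO and Smrt LKO mice lacked these corepressors in the liver, Ppara KO mice lacked PPARα in the whole body, and each line had its own WT group. The RNA-seq comparison had 4 WT and 4 Gps2 LKO livers. The ChIP-seq comparisons had 2 or 3 libraries per group, except for GPS2 and RNA polymerase II in the Gps2 line, with 1 each, and each library was made from several pooled immunoprecipitations. The p-values measure the spread between these libraries, part of which may be technical.

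Asparagine synthetase (Asns) makes asparagine from aspartate and glutamine. Phgdh catalyses the first step of serine synthesis and Psat1 the next, Aldh18a1 starts proline and ornithine synthesis from glutamate, and Got1 interconverts aspartate and glutamate in the cytosol. When amino acids run short, or proteins misfold in the endoplasmic reticulum (ER), kinases phosphorylate eIF2α, general translation slows, and the transcription factor ATF4 is translated more. ATF4 binds C/EBP-ATF response elements in promoters such as that of Asns. ATF5 is a related factor, the pseudokinase TRIB3 restrains ATF4, and Ddit3 encodes CHOP, a factor tied to cell death under lasting ER stress.

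Library depth was 13.2 M to 20.1 M counted reads for RNA-seq and 7.90 M to 46.1 M tags for ChIP-seq (M, 1000000). Gps2 RNA was 16.0 ± 0.719 CPM (reads of the gene per 1000000 reads counted, with TMM scaling; SD, n = 4) in WT and 11.2 ± 1.93 in LKO livers, a log2 difference of -0.53 (adjusted p = 0.0021, edgeR quasi-likelihood test, Benjamini-Hochberg). In the H3K27ac table, the 6 Smrt-line libraries carried 249 to 289 tags per 10M (per 10000000 tags of the library) in peaks of Xist, the RNA of the silenced X chromosome, and 0 on chromosome Y. The 6 Ncor-line libraries carried 2.93 to 4.92 and 306 to 371. These are values of female livers in the Smrt line and of male livers in the Ncor line, while the study describes male mice. The share of tags inside peaks also moved with genotype. It was 8.23%, 7.82% and 3.07% in WT against 2.45% to 3.15% in LKO for GPS2 in the Ncor line, and 19.2% to 21.9% in WT against 28.9% to 32.1% in LKO for PPARα in the Gps2 line. The 3 WT libraries of the latter differed by no more than sampling noise and were counted as 1 sample.

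Asns had the largest RNA difference of the 9 genes. Its level was 4.84, 3.39, 4.13 and 2.42 CPM in the 4 WT livers and 31.3, 26.3, 28.1 and 30.5 CPM in the 4 Gps2 LKO livers. Every LKO liver was above every WT liver, by 7.81-fold on average (log2 difference 2.97, SE 0.146), and Asns stood at rank 35 of the 12220 genes tested when ordered from the highest log2 difference. The gene lies on the minus strand of chromosome 6 at 7675171 to 7693182 (GRCm38).

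The other synthesis enzymes were also higher in each LKO liver than in any WT liver. Psat1 measured 1.18, 1.13, 1.75 and 2.10 CPM in WT and 4.78, 4.78, 4.89 and 4.69 CPM in LKO livers, 3.11-fold higher (log2 difference 1.64, SE 0.179). Aldh18a1 measured 1.49, 1.90, 1.16 and 1.27 CPM in WT and 3.14, 3.15, 3.97 and 3.46 CPM in LKO livers, 2.34-fold higher (log2 difference 1.23, SE 0.181). Both were low-level transcripts, counted in 19 to 33 and 20 to 32 reads per WT library. Got1 was abundant, at 220.7, 214.4, 213.5 and 224.8 CPM in WT and 455.5, 413.7, 450.1 and 466.6 CPM in LKO livers, 2.04-fold higher (log2 difference 1.03, SE 0.0566). Psat1, Aldh18a1 and Got1 share chromosome 19, at 15905123 to 15925059, 40550257 to 40588463 and 43499753 to 43524605 (GRCm38, minus strand). Phgdh (chromosome 3, 98313171 to 98339969) was almost silent: it had 0, 1, 1 and 1 reads in WT and 3, 8, 4 and 3 reads in LKO livers, and the filter on low counts removed it. For serine synthesis, the second enzyme of the path was therefore measured well above the first in both genotypes.

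The stress factors differed less. Atf4 (chromosome 15, 80255184 to 80257545) measured 67.3, 66.6, 65.6 and 71.1 CPM in WT and 108.1, 86.4, 115.5 and 111.7 CPM in LKO livers, 1.56-fold higher (log2 difference 0.64, SE 0.0851). Atf5 (chromosome 7, 44812256 to 44816658) measured 122.4, 130.9, 131.2 and 105.6 CPM in WT and 172.6, 162.5, 193.6 and 177.0 CPM in LKO livers, 1.44-fold higher (log2 difference 0.53, SE 0.0789). The groups did not overlap for either gene. Atf5 overlaps Nup62 on the opposite strand, and it is not given in the sources used here whether reads were counted by strand, so reads of the shared stretch cannot be told apart. Trib3 (chromosome 2, 152337425 to 152344060) measured 3.16, 2.14, 3.26 and 3.57 CPM in WT and 4.11, 3.71, 3.41 and 4.03 CPM in LKO livers. Its groups overlapped, with 3 of 4 LKO livers above the highest WT liver (log2 difference 0.33, SE 0.163). Ddit3 (chromosome 10, 127290793 to 127296288) measured 8.25, 8.68, 9.61 and 8.22 CPM in WT and 9.49, 6.21, 8.12 and 7.66 CPM in LKO livers, with overlapping groups and a log2 difference of -0.16 (SE 0.127).

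Over all 12220 genes tested, 20.0% had every LKO liver above every WT liver, 19.1% had every LKO liver below, 3.27% had a log2 difference of at least 1, and 44.8% passed the test in either direction. Of the members, 7 of 9 had every LKO liver above every WT liver, Phgdh included, a pattern for which they were in part chosen. The log2 differences of Got1, Atf4, Atf5, Trib3 and Ddit3 were 0.91, 0.47, 0.40, 0.21 and -0.46 once a trend with exon length was removed from each library. In whole-liver RNA, a change in the number of cells of a type and a change in RNA per cell cannot be told apart.

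**Figure D1:**
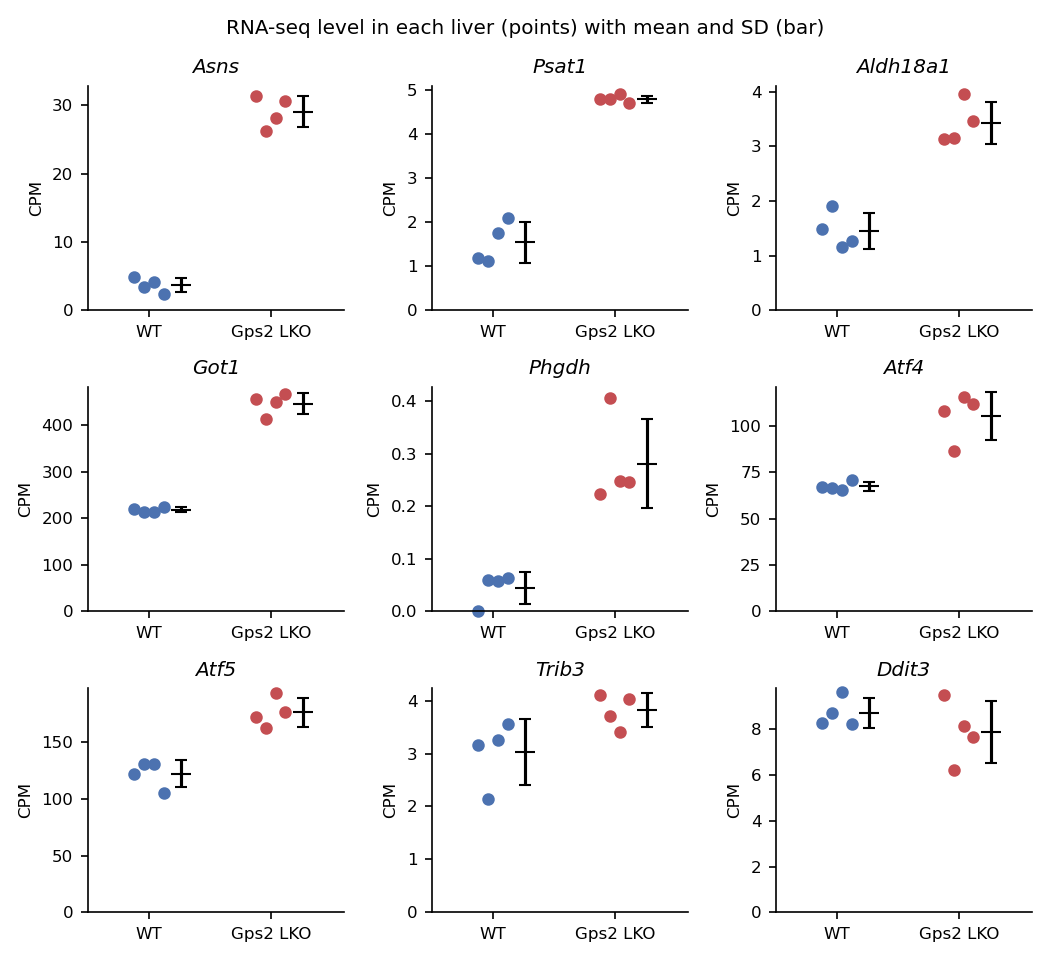
RNA-seq levels of the 9 genes in CPM (vertical axes, each starting at 0) in 4 WT and 4 Gps2 LKO livers; points are livers, bars the mean with SD. The groups lie apart for Asns, Psat1, Aldh18a1, Got1, Phgdh, Atf4 and Atf5 and overlap for Trib3 and Ddit3.

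Divided by exon length, the levels can be compared between genes. In WT livers the order was Got1 (106 ± 2.62 CPM per kb, SD, n = 4), Atf5 (61.5 ± 6.02), Atf4 (39.1 ± 1.40), Ddit3 (9.98 ± 0.744), Asns (1.92 ± 0.538), Trib3 (1.48 ± 0.302), Psat1 (0.618 ± 0.188), Aldh18a1 (0.413 ± 0.0923) and Phgdh (0.0242 ± 0.0162). The ranges of the neighbours Asns and Trib3, and of Psat1 and Aldh18a1, overlapped. In LKO livers Asns, at 15.1 ± 1.19 CPM per kb, stood above Ddit3 at 9.03 ± 1.55 and their ranges did not overlap, and Psat1 at 1.92 ± 0.0331 overlapped Trib3 at 1.86 ± 0.157. Got1 remained the highest at 217 ± 11.1 CPM per kb.

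Within the groups, the correlations between members were mixed. Asns, Psat1 and Aldh18a1 had 38 to 78, 19 to 33 and 20 to 32 reads per WT library, so counting error may blur a shared pattern. The deviations from the group mean of log2 CPM, over the 8 libraries, had a Pearson r of 0.90 between Got1 and Atf4, 0.58 between Asns and Atf5, -0.003 between Asns and Atf4, and -0.60 between Asns and Psat1. For Got1 and Atf4, LKO library 2 was the lowest LKO library of both (413.7 and 86.4 CPM). The genes whose deviations were most like the mean of Asns, Psat1, Aldh18a1 and Got1, among 7446 genes of at least 10 CPM, were Zfp771 (r = 0.99), Gtf2f2 (0.99), Lurap1l (0.98), Cpt2 (0.98) and Dbnl (0.97). They are the top 5 of 7446 genes over only 8 libraries, and whether chance alone gives such values was not tested. These 8 libraries share depth and preparation with the members, and the log2 differences of the 5 genes between LKO and WT ranged from -0.30 for Cpt2 to 0.54 for Zfp771.

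The C/EBP-ATF response element, searched as TGATGNAA on both strands, was in 3 of the 11 RefSeq promoter windows of the 9 genes (250 bases before to 50 after the start) and in 1304 of 32851 windows of all genes (3.97%). The stretches of Asns, Got1 and Trib3 that hold it are shown on the gene's strand (RefSeq, GRCm38.p6), at chr6:7693210-7693359, chr19:43524606-43524755 and chr2:152344028-152344057, with the match in capitals. In Asns it starts 23 bases before the TSS and reads TGATGAAA. In Got1 it starts 102 bases before the TSS on the other strand, and in Trib3 15 bases after it, also on the other strand.
Asns: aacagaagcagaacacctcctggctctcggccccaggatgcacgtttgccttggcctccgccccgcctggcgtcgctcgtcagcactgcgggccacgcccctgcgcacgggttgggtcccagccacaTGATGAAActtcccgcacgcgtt
Got1: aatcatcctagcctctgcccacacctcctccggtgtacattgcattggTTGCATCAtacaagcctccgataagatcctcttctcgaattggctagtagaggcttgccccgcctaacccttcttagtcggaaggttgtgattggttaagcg
Trib3: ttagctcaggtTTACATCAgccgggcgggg
A match is a description of these windows, and binding of ATF4 was not measured.

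The other genes of these pathways were tested in the same RNA comparison, in which 23.4% of genes were higher and 21.4% lower in LKO livers and the median log2 difference of all genes was 0.03. In glutamate, proline and aspartate metabolism, 12 of 16 genes tested rose and 1 fell (median 0.43). Gls2, which releases glutamate from glutamine, rose by 0.65 (adjusted p = 5.1e-07), Prodh2 by 0.59 (adjusted p = 6.1e-05) and the alanine aminotransferase Gpt by 0.49 (adjusted p = 0.00011). In serine, glycine and folate-linked metabolism, 7 of 20 rose and 1 fell (median 0.22). The mitochondrial folate enzyme Mthfd1l went from 4.73 ± 0.847 to 17.0 ± 0.469 CPM (log2 difference 1.85, adjusted p = 4.5e-08), the glycine methyltransferase Gnmt from 1046 to 2098 CPM (1.00, adjusted p = 4.2e-07), and the serine-consuming Sds and Sdsl rose by 0.70 and 0.74 (adjusted p = 1.1e-05 and 0.00249).

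Genes of the urea cycle and amino acid breakdown also rose in 10 of 21 cases and fell in 2 (median 0.16). Ass1, the argininosuccinate synthase that uses aspartate, went from 109.5 ± 4.85 to 263.7 ± 45.7 CPM (log2 difference 1.27, adjusted p = 6.8e-07). Agxt rose by 0.77 (adjusted p = 5e-06), the tyrosine-degrading Hpd by 0.36 (adjusted p = 9.5e-05), and Kmo of tryptophan breakdown fell by 0.45 (adjusted p = 1.7e-05). Of amino acid transporters, 5 of 13 rose and 2 fell (median 0.06). The carrier of basic amino acids Slc7a1 rose by 1.24 (adjusted p = 0.00563), Slc1a5 by 0.82 (adjusted p = 0.00025), the heavy chain Slc3a2 by 0.77 (adjusted p = 1.7e-06) and Slc1a4 by 0.65 (adjusted p = 0.00144).

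Targets of ATF4 and CHOP split, with 9 of 17 higher and 3 lower (median 0.32). The hormone Fgf21 went from 0.778 ± 0.231 to 15.5 ± 2.20 CPM (log2 difference 4.30, adjusted p = 7.4e-10) and the lipoprotein receptor Vldlr from 0.793 ± 0.166 to 10.9 ± 1.18 CPM (3.78, adjusted p = 7.6e-10); both are known targets of PPARα as well. Nupr1 rose by 2.79 (adjusted p = 5.9e-07) and Atf3 by 1.38 (adjusted p = 7.9e-06). ER chaperones and unfolded protein response genes went the other way, with 1 of 22 higher and 16 lower (median -0.32). Derl3, of ER-associated degradation, fell by 1.99 (adjusted p = 1.1e-06), the chaperone cofactor Sdf2l1 by 1.23 (adjusted p = 5.1e-07), Creld2 by 1.14 (adjusted p = 3e-07), and the stress sensor Ern1 by 0.98 (adjusted p = 0.00268).

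Among eIF2α kinases and eIF2B subunits, 0 of 14 passed as higher and 4 as lower in edgeR (median -0.04). The 4 were Gcn1l1, which activates the amino acid sensing kinase GCN2 (-0.53, adjusted p = 0.0153), and the kinases Eif2ak1 (-0.34, adjusted p = 0.00204), Eif2ak2 (-0.30, adjusted p = 0.028) and Eif2ak3 (-0.28, adjusted p = 0.0229), of which Eif2ak3 did not pass with the length trend removed (adjusted p = 0.0614). Cytosolic tRNA synthetases, many of them ATF4 targets, had 3 of 20 higher and 4 lower (median 0.00). Tars and Cars rose by 0.30 and 0.28 (adjusted p = 0.00148 and 0.00864), and Qars and Iars fell by 0.39 and 0.28 (adjusted p = 0.00064 and 0.0167). Of mitochondrial stress genes, 3 of 8 rose and 2 fell (median 0.09), with Hspe1 at 0.62 (adjusted p = 0.00193), Hspa9 at 0.36 (adjusted p = 0.00016), Hspd1 at 0.29 (adjusted p = 0.0029) and Dnaja3 at -0.26 (adjusted p = 0.00257). Removing the exon length trend moved some of these counts. Serine, glycine and folate-linked genes then had 10 of 20 higher and 1 lower (median 0.22). Genes of glutamate, proline and aspartate metabolism had 11 of 16 higher and 1 lower (median 0.34). Targets of ATF4 and CHOP had 9 of 17 higher and 4 lower (median 0.21). Transporters then had 8 of 13 higher (median 0.36), tRNA synthetases 4 higher and 7 lower (median -0.07), the urea cycle and breakdown genes 9 higher and 4 lower (median 0.09), eIF2α kinases and eIF2B subunits 1 higher and 5 lower (median -0.12), ER genes 2 higher and 17 lower (median -0.36), and the median of the mitochondrial stress genes was -0.02.

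**Figure D2:**
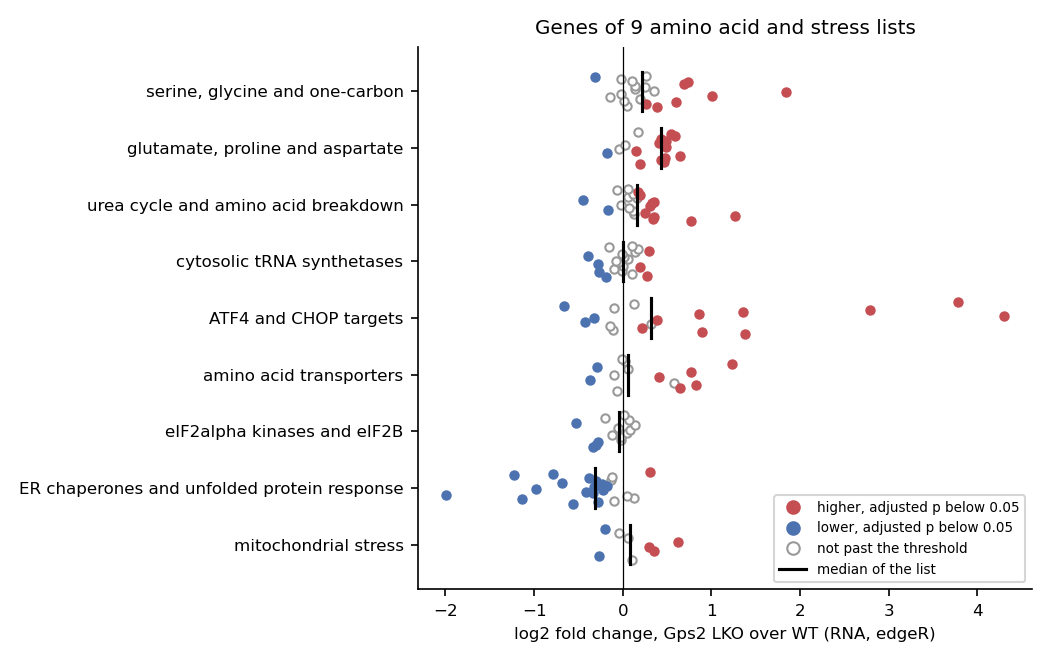
Log2 fold change of RNA between Gps2 LKO and WT livers (horizontal axis) for the genes of 9 lists, members left out; each point is a gene, filled where the adjusted p passed 0.05, and the vertical mark is the median of the list. Genes of glutamate, proline and aspartate metabolism lie mostly to the right of 0 (12 of 16 higher) and ER chaperone genes mostly to the left (16 of 22 lower).

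Markers of liver cell types moved with the same groups. The summed level of 5 hepatocyte markers was 102893 to 106800 CPM in WT and 139465 to 168487 CPM in LKO livers (3 of 5 genes higher), that of 6 stellate cell and fibroblast markers 151.6 to 159.2 and 283.1 to 293.5 CPM (6 of 6 higher), and that of 6 macrophage markers 103.1 to 106.2 and 146.8 to 166.9 CPM (5 of 6 higher). Endothelial markers were higher in 2 of 6, cholangiocyte markers in 3 of 5 and lymphocyte markers in 1 of 1 cases tested, and none of these lists was at 0. Their part in the RNA differences was not tested.

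The histone marks over the Asns promoter were higher in Gps2 LKO livers. H3K4me3, a mark of active promoters, was 122.9 and 110.1 tags per 10M in the 2 WT libraries and 252.5 and 231.5 in the 2 LKO libraries at a peak of 5269 bases that spans the TSS (mm9 chr6:7638434-7643702). Its centre lies 2114 bases past the TSS, so most of it is inside the gene. It is called the Asns promoter for the histone marks. The LKO libraries were both higher, with a log2 fold change of 1.05 (SE 0.144, adjusted p = 0.00281). H3K27ac, a mark of active promoters and enhancers, was 44.8 and 22.5 in WT against 146.0 and 166.4 in LKO libraries at the same peak (log2 fold change 2.23, SE 0.261, adjusted p = 0.0138). Leaving out either WT library ended this H3K27ac call, with an adjusted p of 0.125 (library 1 out) and 0.129 (library 2 out).

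Among the histone peaks that the tables assign to the members, no other promoter passed the test for either mark in the Gps2 line. Of the members' peaks, 1 of 7 passed for H3K4me3 and 1 of 12 for H3K27ac as higher, both of them the Asns promoter, against 0.916% and 1.42% of all peaks tested in either direction and 0.798% and 1.21% as higher. For H3K4me3, every LKO library was above every WT library at 6 of 7 members' peaks, against 27% of all peaks. For H3K27ac, this held at 5 of 12 members' peaks, against 30.1% of all peaks, and below at 1 of 12, against 14.6%. At the Psat1 promoter, H3K27ac was 18.4 and 27.6 in WT against 38.0 and 38.0 in LKO libraries (log2 fold change 0.71, adjusted p = 0.191) and H3K4me3 differed by 0.25 (adjusted p = 0.713). The Psat1 peak with most H3K27ac tags lay far off, 331438 bases past the TSS, and measured 21.2 and 25.9 in WT against 34.2 and 42.8 in LKO libraries (0.71, adjusted p = 0.166). The Got1 peak, which spans 20645 bases, held 1435 and 1513 tags per 10M of H3K4me3 in WT against 1903 and 1731 in LKO libraries (0.30, adjusted p = 0.064), and its H3K27ac differed by 0.08 (adjusted p = 0.762). In edgeR with the replicate number as a block, the Got1 H3K4me3 difference passed (adjusted p = 0.00107), as in no other of the 9 alternatives. At Aldh18a1 the values were 0.06 and 0.10, at Atf4 0.12 and 0.07 and at Ddit3 0.09 and 0.01 for H3K4me3 and H3K27ac, with adjusted p from 0.715 to 0.987. For Phgdh, H3K27ac at a peak centred 28927 bases past the TSS, beyond the end of the gene, gave 0.32 (adjusted p = 0.308). H3K4me3 491 bases past the TSS gave 0.21 (adjusted p = 0.899).

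The starts of Atf5 and Trib3 lay in peaks that the tables assign to the neighbours Nup62 and Gm14164, an inclusion decided after seeing the data. Over the Atf5 start, H3K4me3 was 896.1 and 785.9 in WT against 1214 and 1061 in LKO libraries (log2 fold change 0.43, SE 0.0809, adjusted p = 0.0211), a call lost without WT library 2 (adjusted p = 0.179) or LKO library 1 (adjusted p = 0.144). H3K27ac there was 813.8 and 783.7 in WT against 1133 and 1018 in LKO libraries (0.43, adjusted p = 0.061). Over the Trib3 start the differences were 0.08 for H3K4me3 and 0.17 for H3K27ac (adjusted p = 0.959 and 0.464).

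In Ncor LKO livers, H3K27ac at the Asns promoter, here a peak centred 1779 bases past the TSS, was lower. It was 21.5, 61.9 and 149.9 tags per 10M in WT against 5.65, 15.9 and 12.4 in LKO libraries (mm9 chr6:7639398-7643409, log2 fold change -2.79, SE 0.601, adjusted p = 0.0357). The LKO libraries lay below all WT libraries, which spread widely, and the call was lost without WT library 2, WT library 3, LKO library 1 or LKO library 3 (adjusted p from 0.0932 to 0.106). It was the only 1 of the 16 members' peaks to pass, against 3.12% of all peaks in either direction and 0.801% as lower, and 3 of 16 had every LKO library below every WT library, against 9.04%. The Psat1 promoter measured 21.2, 21.6 and 41.6 in WT against 16.0, 21.5 and 16.3 in LKO libraries (-0.66, adjusted p = 0.273), and the wide Atf5 peak 778.5, 672.0 and 893.7 in WT against 1353, 1028 and 779.9 in LKO libraries (0.43, adjusted p = 0.273). Got1 and Atf4 gave 0.08 and -0.08 (adjusted p = 0.839 and 0.805).

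In Smrt LKO livers, Asns promoter H3K27ac was 6.13, 3.93 and 8.00 in WT against 17.8, 12.5 and 8.93 in LKO libraries (log2 fold change 1.13, SE 0.34, adjusted p = 0.834), with every LKO library above every WT library. The Asns peak was named to match the Ncor line, after its values were seen, and the Atf4 peak centred 1526 bases before the TSS gave -0.21 (adjusted p = 0.834). Every LKO library was above every WT library at 1 of 16 members' peaks, against 5.8% of all peaks, and below at 2 of 16, against 6.09%. None of the 16 members' peaks passed in edgeR (0.0% of all 68800 peaks). At an unadjusted p under 0.05 there were 2 of the 16 and 4079 of all peaks, and DESeq2 called 0 of the 16 and 68 of all peaks. The Ncor and Smrt effects at Asns differed by -3.92 on the log2 scale (adjusted p = 0.0566, a test added after seeing the data), where 0.426% of all peaks passed that test. The WT libraries of the lines set the Asns level apart as well: the lowest Ncor-line WT library, 21.5, was above the highest Smrt-line WT library, 8.00, in lines that also differed in Xist and chromosome Y tags. Line and sex cannot be told apart in these comparisons of the Ncor and Smrt lines.

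**Figure D3:**
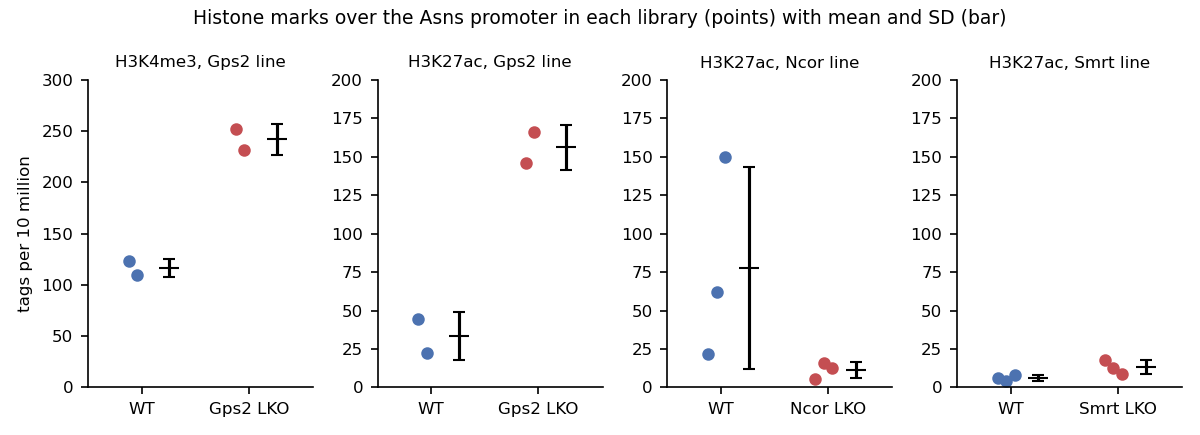
H3K4me3 and H3K27ac at the Asns promoter in tags per 10M (vertical axes from 0, the first panel with its own scale) in WT and knockout livers of the Gps2, Ncor and Smrt lines; points are libraries, bars the mean with SD. Both marks lie higher in Gps2 LKO than WT libraries, and H3K27ac lies lower in Ncor LKO than WT libraries, where WT ranges from 21.5 to 149.9.

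GPS2 peaks were assigned to 7 of the 9 genes, in a comparison of 1 WT with 1 LKO library that has no replicate check. The only peak assigned to Phgdh, with 12 WT and 2 LKO tags, lay 28542 bases past the TSS, beyond the end of the gene. At Atf5, 3414 bases before the TSS, the WT library had 118 tags (76.1 per 10M) and the LKO library 1, 113-fold lower (95% counting interval 19.8 to 4486). At Got1, peaks at 1509 bases before the TSS and 10520 and 8019 bases past it had 49, 42 and 42 WT tags and 0, 0 and 4 LKO tags, so the first was at least 15.6-fold and the second at least 13.4-fold lower against a limit of 3 tags in the LKO library, with the WT count taken as it stands. At Psat1, 19766 bases past the TSS and next to the end of the gene, 30 WT tags faced 0, at least 9.54-fold lower. The Atf4, Ddit3 and Trib3 promoters had 27, 24 and 11 WT tags and 1, 0 and 2 LKO tags. No GPS2 peak of this table was assigned to Asns or Aldh18a1. Fewer tags in LKO were found at 99.9% of all GPS2 peaks. Intervals and limits cover counting error only.

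The Got1 site 10520 bases past the TSS and the Atf5 site are shown on the plus strand of mm9, at chr19:43588507-43588643 and chr7:52075374-52075510, since the tests below return to them. Capitals in the Got1 peak mark a match with 1 mismatch, on the minus strand, to the PPARα half-site pair AGGTCANAGGTCA (DR1). Its letters read AGGTCACAGTTCA on that strand.
Got1 peak: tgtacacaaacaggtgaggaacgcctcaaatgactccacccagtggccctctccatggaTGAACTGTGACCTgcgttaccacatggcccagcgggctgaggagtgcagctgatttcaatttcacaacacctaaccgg
Atf5 peak: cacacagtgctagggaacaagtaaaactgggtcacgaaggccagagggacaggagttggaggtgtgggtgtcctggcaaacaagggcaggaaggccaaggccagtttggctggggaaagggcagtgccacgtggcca
An exact DR1 was in 0 of the 19 members' GPS2 peaks and in 75 of 48960 GPS2 peaks (0.153%). With 1 mismatch allowed, a choice made after seeing the data, it was in 2 of the 19, both at Got1, and in 923 of 48960 (1.89%). No exact DR1 was in the 11 promoter windows, against 13 of 32851 (0.0396%).

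PPARα tags fell at some of these sites in Ppara KO livers, in a comparison that serves as a check of the antibody. At the Psat1 site 19742 bases past the TSS, PPARα was 31.9 and 23.7 tags per 10M in WT against 0.687 and 1.47 in KO libraries, 76 against 3 tags, 26.3-fold lower (counting interval 8.65 to 130). At the Atf5 site it was 21.2 and 19.9 in WT against 4.12 and 2.20 in KO libraries (log2 fold change -2.66, SE 0.428, adjusted p = 0.00031). At Got1, the peaks 10496 and 7993 bases past the TSS and 1567 bases before it fell by 2.55, 2.58 and 2.02 (adjusted p = 0.00618, 0.00567 and 0.0147), and the promoter had 23 against 3 tags, 7.95-fold lower (2.40 to 41.4). An Atf4 peak 6379 bases before the TSS had 16 against 1 tag. No fall was seen at the Atf4 and Trib3 promoters, but both held few tags in this line, so a fall there may be missed. At the Atf4 promoter, PPARα was 3.54 and 3.06 in WT against 3.43 and 3.66 in KO libraries (0.10, SE 0.781, adjusted p = 0.946). The Trib3 promoter had 1 WT against 4 KO tags. In all, 7 of 20 members' peaks fell, against 27.6% of all peaks, and 14 of 20 had both KO libraries below both WT libraries, against 68.3%. Scaling by TMM, which moved the median of all peaks from -1.68 to -0.22, left 1 of these calls, at Psat1, and 0 remained without either WT library.

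NCOR was also lower at some of these sites. In Ppara KO livers, NCOR at the Psat1 site 19783 bases past the TSS was 28.4, 21.5 and 43.8 in WT against 3.27, 6.06 and 7.12 in KO libraries (log2 fold change -2.47, SE 0.397, adjusted p = 2.7e-07). Every KO library was well below every WT library. The neighbouring Psat1 peak at 20867 bases had 39 WT and 3 KO tags, 14.9-fold lower (counting interval 4.75 to 75.6). NCOR also fell at the Psat1 promoter, from 18.7, 18.1 and 19.4 to 7.36, 6.73 and 5.69 (-1.50, adjusted p = 0.0145), in an intron of Aldh18a1 at 7332 bases, from 8.94, 5.16 and 16.9 to 1.64, 2.02 and 1.42 (-2.54, adjusted p = 0.0032), and at the Atf5 site, from 120.3, 138.5 and 150.8 to 98.1, 101.0 and 61.2 (-0.65, adjusted p = 0.019). These were 5 of 45 members' peaks, against 2.64% of all peaks in either direction and 2.51% lower. In 14 of 45, every KO library was below every WT library, against 18.8%. The Got1 peaks did not pass. At the Got1 peak with most tags, 1506 bases before the TSS, the difference was -0.06 (adjusted p = 0.897), and at the Atf4 peak 6385 bases before the TSS it was 0.04 (adjusted p = 0.935). For the Got1 sites inside the gene, named after their values were seen, at 8006 bases past the TSS NCOR was 102.4, 80.0 and 116.3 in WT against 80.1, 71.4 and 59.1 in KO libraries (-0.51, adjusted p = 0.168), and at 10491 bases the difference was -0.05 (adjusted p = 0.915). The calls were 3 with TMM, 2 with DESeq2 and 2 without WT library 3. The Psat1 peak at 19783 bases passed under all 10 alternatives and that at 20867 bases under the 9 that tested it. The Atf5 call was lost in 8 of 10, among them TMM (-0.36, adjusted p = 0.142), the Psat1 promoter call in 6 of 10, among them TMM (adjusted p = 0.06), and the Aldh18a1 call in 2 of the 9 that tested it, with DESeq2 (adjusted p = 0.101) and without WT library 3 (adjusted p = 0.268).

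**Figure D4:**
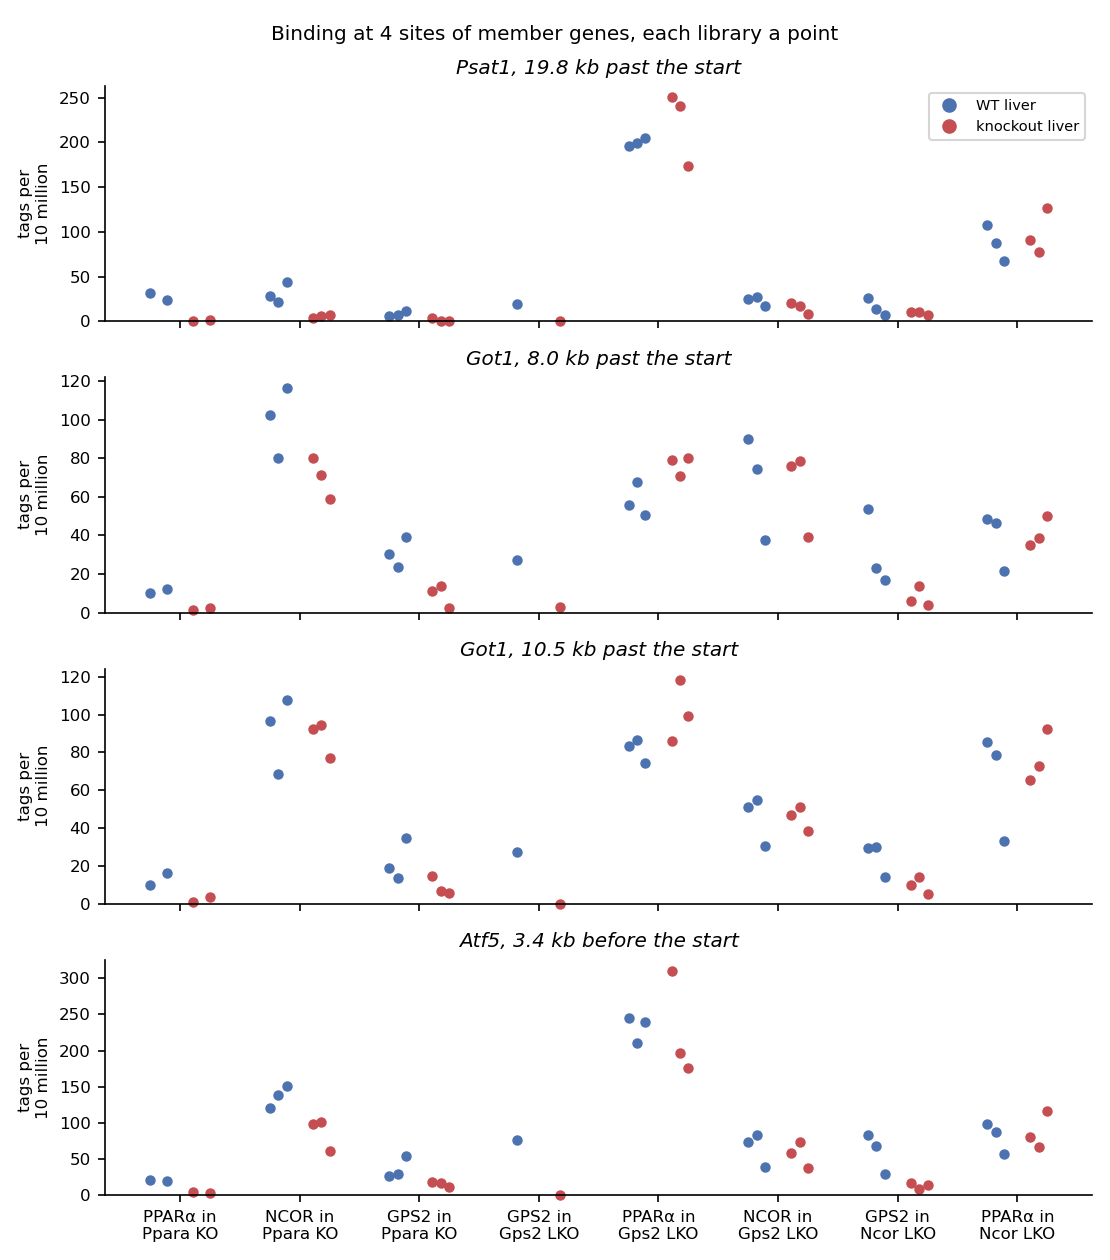
Tags per 10M (vertical axes from 0, a scale for each site) of PPARα, NCOR and GPS2 at 4 sites of Psat1, Got1 and Atf5 in WT and knockout livers of the Ppara, Gps2 and Ncor lines; each point is a library, the WT libraries of PPARα in the Gps2 line being counted as 1 sample. NCOR at Psat1 goes from 21.5 to 43.8 in WT down to 3.27 to 7.12 in Ppara KO libraries, while at Got1, 10.5 kb past the start, WT and Ppara KO libraries overlap for NCOR.

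GPS2 at the same sites was lower in Ppara KO and Ncor LKO livers in every library in some cases but did not pass the test. In Ppara KO livers, GPS2 at Got1, 8011 bases past the TSS, was 30.5, 23.4 and 39.2 in WT against 10.9, 13.6 and 2.16 in KO libraries (log2 fold change -1.79, SE 0.571, adjusted p = 0.121), and at the Atf5 site 25.7, 29.2 and 53.9 in WT against 18.2, 16.6 and 11.5 in KO libraries (-1.22, adjusted p = 0.183). In edgeR 0 of 13 members' peaks passed (0.273% of all peaks), 6 of 13 had an unadjusted p under 0.05, all lower, against 6410 of 27842 peaks in all, and DESeq2 called 0 of 13 and 72 of all peaks. In 4 of 13 the groups lay apart, against 31.3% of all peaks. The median was -0.76 for the members' peaks and -0.93 for all peaks.

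In Ncor LKO livers, GPS2 at the Atf5 site was 82.9, 68.2 and 29.5 in WT against 16.3, 8.27 and 14.0 in LKO libraries (log2 fold change -2.21, SE 0.63, adjusted p = 0.0761). At Got1, 8010 bases past the TSS, it was 53.6, 23.3 and 16.6 in WT against 5.91, 13.6 and 3.64 in LKO libraries (-2.02, adjusted p = 0.0761), and at the Got1 promoter the difference was -1.50 (adjusted p = 0.0982). In edgeR 0 of 22 members' peaks passed (0.0338% of all peaks), 9 had an unadjusted p under 0.05, all lower, against 19323 of 56278 peaks in all, and DESeq2 called 5, against 17.5% of all peaks. Without WT library 3, which had the fewest WT tags in peaks (3.07%), 12 of 22 passed, against 59.5% of all peaks. The Asns peak in this table, 31540 bases past the TSS, held 7, 1 and 0 tags in WT libraries and 3, 2 and 1 tags in LKO libraries (-0.57, adjusted p = 0.651). The median was -1.01 for the members' peaks and -1.12 for all peaks, and 3 of 22 had every LKO library below every WT library, against 26.6%.

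In Gps2 LKO livers, PPARα was higher inside the Asns gene. At 17840 bases past the Asns TSS, in an exon near the end of the gene, PPARα was 13.9, 10.4 and 10.1 in WT against 40.2, 45.5 and 46.9 in LKO libraries (log2 fold change 2.01, SE 0.443, adjusted p = 0.00314). At 988 bases the WT libraries had 0, 1 and 0 tags and the LKO libraries 7, 9 and 20, 27.1-fold higher by summed tags (counting interval 4.56 to 1098). The edgeR test used the rounded WT mean of 0 tags and gave a log2 fold change of 6.49 (adjusted p = 0.0303). This call was lost in 3 of the 9 alternatives that tested it. At the Asns promoter, 53 bases before the TSS, it was 2.53, 1.90 and 1.13 in WT against 6.90, 18.0 and 9.97 in LKO libraries (2.35, adjusted p = 0.101). These were 2 of 51 members' peaks, against 2.52% of all peaks in either direction and 2.49% as higher, and 27 of 51 had every LKO library above every WT library, against 46.7%, in libraries whose share of tags in peaks was higher in LKO. With WT as 1 sample, this test takes its spread from the 3 LKO libraries. With TMM the median of all peaks went from 0.61 to 0.02 and 0 members' peaks passed. DESeq2 also called 0 of these, and 34 of all peaks. It gave no adjusted p for the Asns peak at 17840 bases, so it cannot decide that call. In the antibody check in Ppara KO livers, Asns had 1 peak, which did not pass the test. The sites with most PPARα did not follow: the Psat1 site was 196, 199 and 205 in WT against 251, 241 and 174 in LKO libraries (0.14, adjusted p = 0.766), and the Atf5 site 246, 211 and 239 in WT against 310, 197 and 176 in LKO libraries (-0.03, adjusted p = 0.95). At Got1, 10516 bases past the TSS, PPARα was 83.5, 86.4 and 74.4 in WT against 86.2, 118 and 99.1 in LKO libraries (0.32, adjusted p = 0.476).

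NCOR in Gps2 LKO livers passed at 0 of 35 members' peaks in edgeR (0.0173% of all peaks), with 1 at an unadjusted p under 0.05, against 2253 of 80813 peaks in all, and 0 in DESeq2, against 7 in all. At the Atf5 site it was 73.2, 83.2 and 38.8 in WT against 58.7, 73.0 and 37.4 in LKO libraries (log2 fold change -0.21, SE 0.428, adjusted p = 1). At Got1, 8010 bases past the TSS, it was 90.0, 74.4 and 37.7 in WT against 76.0, 78.6 and 39.1 in LKO libraries (-0.06, adjusted p = 1). Every LKO library was above every WT library at 2 of 35 members' peaks, against 2.67% of all peaks, and below at 2 of 35, against 3.01%. At the 6 Asns peaks all differences were above 0, as at 21 of the 35 members' peaks and 47.3% of all peaks, and none passed. At the Asns promoter the groups overlapped, with NCOR at 13.1, 6.57 and 4.06 in WT against 7.98, 13.4 and 8.68 in LKO libraries (0.31, adjusted p = 1). PPARα in Ncor LKO livers passed at 0 of 42 (0.196% of all peaks), with 2 at an unadjusted p under 0.05, against 4506 of 86168 peaks in all, and 0 in DESeq2, against 29 in all. The Psat1 site was 107, 87.6 and 67.5 in WT against 90.7, 77.4 and 126 in LKO libraries (0.17, adjusted p = 1), the Atf5 site 98.1, 87.6 and 56.1 in WT against 81.0, 66.2 and 116 in LKO libraries (0.12, adjusted p = 1), and the Got1 promoter differed by -0.26 (adjusted p = 1). Every LKO library was above every WT library at 1 of 42 members' peaks, against 5.99% of all peaks, and below at 2 of 42, against 2.01%.

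RNA polymerase II was measured in 1 WT and 1 Gps2 LKO library, so the differences compare these libraries and have no replicate check. At the Asns TSS there were 39 and 47 tags (log2 ratio 0.24, 95% counting interval -0.40 to 0.89), at the Atf5 TSS 78 and 132 (0.73, 0.32 to 1.15), and 209 bases before the Atf4 TSS 112 and 167 (0.55, 0.19 to 0.91). At 330 bases past the Atf4 TSS there were 283 and 289 tags (0.001, -0.24 to 0.24). Got1 had 256 and 315 (0.27, 0.03 to 0.51), Ddit3 229 and 298 (0.35, 0.10 to 0.61), Trib3 103 and 82 (-0.36, -0.79 to 0.07) and Aldh18a1 13 and 13, and no peak was assigned to Psat1. An intergenic peak 5979 bases past the Atf5 TSS, named after its values were seen, had 6 and 25 tags (2.03, 0.71 to 3.61), the only 1 of 16 with at least 2 times as many tags per 10M in LKO, against 7.72% of all peaks.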

How the data were processed

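The authors deposited whole-number counts: reads per gene for polyA RNA, and tags per merged peak for each ChIP-seq experiment. Per the labels, the tools were Bowtie2, HISAT2, SAMtools, HOMER and featureCounts with builds mm9, GRCm38 and mm10, with no versions. Exon coordinates of the RNA table are those of GRCm38 and peaks those of mm9. The tables of the deposited comparisons also hold the authors' log fold changes, p-values and false discovery rates, which were not used. Members and pathway lists were chosen with earlier results of these data known.

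RNA was tested with edgeR's quasi-likelihood test (edgeR 4.0.16, R 4.3.3) with TMM scaling after the edgeR filter on low counts. Peaks were tested with the same method, scaled by total tags, over all peaks of a table with a tag (histone peaks of the Gps2 line only where at least 2 of the peak lists held the mark). P-values were adjusted by Benjamini and Hochberg over all genes or peaks, with a threshold of 0.05. Tags per 10M are tags divided by the library total and multiplied by 10000000, and CPM are reads per 1000000 after TMM scaling. DESeq2 1.42.0, Python 3.11.15, numpy 2.4.6, scipy 1.17.1, pandas 2.3.3 and matplotlib 3.10.9 were also used, and the fits were tested on simulated data with known changes. Alternatives were TMM, DESeq2, a filter on low counts, a replicate block, an exon length trend and leaving out each library.

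Named are all members, at most 4 further genes per list (past the threshold, largest absolute log2 fold change), and per member and table the promoter peak within 1000 bases of the TSS, the peak with most tags and at most 3 peaks past the threshold. A gene that this rule names is not reported here. Promoters came from RefSeq (GRCm38.p6), peak sequences from the mm9 genome (NCBIM37). Libraries sharing a number were not paired: the correlation of their deviations was 0.005 to 0.106 for RNA, and in no comparison with 3 or more pairs was every one above 0.1. For H3K27ac and H3K4me3 of the Gps2 line, with only 2 pairs each, the correlation was 0.174 and 0.231. The 3 PPARα libraries of Gps2 WT livers had a mean chi-square per degree of freedom of 0.92 over peaks, with 3.9% of peaks below a p of 0.05, and were averaged into 1 sample.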

Additional observations from a re-analysis of the deposited data

Results flagged for a closer look

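In 90 groups of 4 RNA libraries, 11 held a library that stood apart from the other 3 by Dixon's rule, and chance flags about 1 in 20 groups. Among the members only Phgdh did. Its WT library 1 was at 0.0 CPM with 0 reads, against 0.0582 to 0.0637 in the others, and LKO library 2 at 0.407 CPM against 0.224 to 0.248. LKO library 2 also stood apart for Agxt (207.0 CPM against 261.3 to 269.0), Iars (65.3 against 49.9 to 52.4) and Slc3a2 (55.0 against 63.0 to 63.6). WT library 1 did for Gnmt (1087 against 1029 to 1037), Sdsl (8.62 against 6.75 to 7.07) and Tars (121.1 against 119.4 to 119.5), WT library 3 for Eif2ak3 (38.6 against 34.3 to 34.9) and Gls2 (302.9 against 299.5 to 300.03), and LKO library 4 for Qars (42.2 against 45.4 to 46.0).

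At 4 peaks every knockout library moved one way in one line and the opposite way in another, and the difference was not tested in any of them. The share of all peaks with such opposite moves was not computed. Over all peaks of a single line, every LKO library lay above every WT library at 30.1% for H3K27ac and 46.7% for PPARα in the Gps2 line, and below at 9.04%, 6.09% and 2.01% for H3K27ac in the Ncor and Smrt lines and PPARα in the Ncor line. H3K27ac at the Asns promoter had a log2 fold change of 2.23 in Gps2 LKO and -2.79 in Ncor LKO livers. H3K27ac at the distant Psat1 peak, about 331 kb past the TSS, had 0.71 in Gps2 LKO and -0.45 in Ncor LKO livers. H3K27ac past Phgdh had 0.32 in Gps2 LKO and -0.28 in Smrt LKO livers. PPARα at Asns, 2916 bases past the TSS, had 2.896 in Gps2 LKO livers, and at 2920 bases in the Ncor line -2.42.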

How the results depend on the processing

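Of 596 values of single peaks under the alternatives, 485 kept direction and side of the threshold, 54 lost the call, 21 gained it and 36 turned direction. For the members' RNA, 101 of 104 values moved by less than 1 SD between replicates and 3 by more, with the direction kept in all 104. Of 468 values of listed genes, 453 kept the call and 15 lost it, Eif2ak3, Eif2ak2 and Iars among them. Of 253 counts of calls, 115 moved by over 1.5 times. The cause was not tested. Depth limits Phgdh most, with 1 read or fewer in each WT library.

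The 5477 RNA calls ranged from 4365 to 6970 with 1 library left out. Of peaks called (that is, over all peaks, then among members' peaks where that changed), GPS2 in the Ncor line had 19 and 0, and gave 1257 and 2 with TMM, 9852 and 5 with DESeq2 and 1700 and 2 with a filter on low counts. GPS2 in the Ppara line had 76, and gave 42 with TMM and 151 with the filter. H3K27ac had 668 in the Gps2 line (382 with TMM, 1080 over all peaks of the table), 2145 in the Ncor line (3391 with DESeq2) and 0 in the Smrt line (68 with DESeq2). H3K4me3 had 209 (32 over all peaks of the table). NCOR had 14 in the Gps2 line (359 with TMM, 7 with DESeq2, 8 with the filter), and 3042 and 5 in the Ppara line (3 members' peaks with TMM, 1083 and 2 with DESeq2, 3 members' peaks with the filter). PPARα had 2579 and 2 in the Gps2 line (79 and 0 with TMM, 34 and 0 with DESeq2, 37826 and 24 with the WT libraries as 3 samples), 169 in the Ncor line (1496 with TMM, 29 with DESeq2, 75 with the filter) and 11119 and 7 in the Ppara line (1448 and 1 with TMM, 7357 with the filter). TMM moved the median log2 fold change of all peaks from -1.12 to -0.04 for GPS2 in the Ncor line, from -0.93 to 0.01 for GPS2 and -0.32 to -0.02 for NCOR in the Ppara line.

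Where leaving out a library left 1 in its group, that library was assumed to vary like the other group. With 1 library left out, peaks called ranged from 0 to 33472 for GPS2 in the Ncor line (members 0 to 12, the highest of both without WT library 3), 2 to 68 for GPS2 in the Ppara line, 0 to 3006 (members 0 to 2), 397 to 2560 (members 0 to 1) and 0 to 2 for H3K27ac in the Gps2, Ncor and Smrt lines, 110 to 236 for H3K4me3, 0 to 78 and 1207 to 2855 (members 2 to 5) for NCOR in the Gps2 and Ppara lines, and 1120 to 5969 (members 1 to 4), 5 to 835 and 0 to 8839 (members 0 to 6) for PPARα in the Gps2, Ncor and Ppara lines. The 293 peaks at which the Ncor and Smrt effects on H3K27ac differed ranged from 51 to 372 (members 0 to 1).

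With the replicate number as a block, the calls became 10541 (6 of members) for GPS2 in the Ncor line, 0 for GPS2 in the Ppara line, 2464 and 1143 for H3K27ac in the Gps2 and Ncor lines, 701 (2 of members) for H3K4me3, 288 and 1972 for NCOR in the Gps2 and Ppara lines, 0 for PPARα in the Ncor line, 0 (0 of members) for PPARα in the Ppara line and 69 (1 of members) for the difference of Ncor and Smrt effects. RNA gave 5738 with the block. Libraries correlated best with their own number in 4 of 8 for RNA and 4 of 4 for both histone marks of the Gps2 line, which have only 2 pairs, and the block moved no other count of calls by over 1.5 times.

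Directions that turned were those of small differences. TMM gave -0.049 for H3K27ac at Ddit3 in the Gps2 line, 0.26 and 0.23 for NCOR at Got1 (10491 bases past and 1506 before the TSS) in the Ppara line, -0.47 and -0.28 for PPARα at the Psat1 and Got1 sites in the Gps2 line, and -0.026 for PPARα at Atf5 in the Ncor line. The block gave -0.060 for H3K27ac at the Trib3 start in the Ncor line. With 1 library left out, the Gps2-line log2 fold changes that turned ranged from -0.022 to 0.16 and -0.054 to 0.063 for H3K27ac at Atf4 and Ddit3, from -0.032 to 0.17 and -0.019 to 0.19 for H3K4me3 at Aldh18a1 and the Trib3 start, from -0.35 to 0.20 and -0.47 to 0.013 for NCOR at Got1 and Atf5, and from -0.30 to 0.14 for PPARα at Atf5. Those of the Ncor line ranged from -0.014 to 0.16, -0.0072 to 0.095 and -0.29 to 0.28 for H3K27ac at Got1 and the Ddit3 and Trib3 starts, and from -0.057 to 0.34 and -0.13 to 0.29 for PPARα at Psat1 and Atf5. In the Ppara line, NCOR ranged from -0.22 to 0.083 and -0.28 to 0.11 at Got1 and from -0.049 to 0.15 at Atf4, and in the Smrt line H3K27ac at the Trib3 start from -0.22 to 0.015.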
